A study of Mus musculus with 47 samples.

Results

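Kidneys of NZO/HlLtJ and CAST/EiJ mice fed a diet of 10% fat with fiber were compared gene by gene. The comparison used 8 NZO and 7 CAST poly(A) RNA-seq libraries, 15 of the 47 in the series, taken by their strain and diet labels. NZO/HlLtJ (New Zealand Obese) is an inbred strain used as a polygenic model of obesity and type 2 diabetes. CAST/EiJ is a wild-derived inbred strain of Mus musculus castaneus. All mice carried the wild-type genotype with no treatment other than the diet, which began at 6 weeks of age, and tissue was taken at 15 weeks. By their labels, 4 NZO libraries were from females (F) and 4 from males (M), and 4 CAST libraries were F and 3 M. The other libraries were C57BL/6J (B6) mice and mice of all 3 strains on 44% fat with fiber. The labels name the tissue metanephros, the term for the developing permanent kidney, and the series title names it kidney. They do not state whether each library comes from its own mouse, and the tests below rest on the variation among libraries, which may be technical in part.

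The kidney filters blood in the glomerulus and recovers glucose, amino acids, phosphate and organic ions mainly in the proximal tubule. Later segments (the thick ascending limb, the distal convoluted tubule and the collecting duct) adjust salt, calcium, acid and water. Kidney transcripts also differ by sex in rodents, chiefly in the proximal tubule, so F and M were kept as separate groups and the strain difference is the mean of the F and the M differences.

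Total counts ran from 36.4 M to 50.4 M per library (M, mega). The proximal tubule markers summed to between 18960 and 28230 CPM (counts scaled to a common library total) in every one of the 15 libraries, and podocyte markers to between 526 and 809 CPM. The first principal component, with 52.1% of the variance over 7833 genes, separated all NZO from all CAST libraries. Genes of the mitochondrial chromosome took 10.7% to 12.4% of the counts in NZO and 12.8% to 14.1% in CAST, with no overlap (exact two-sided permutation test, p = 0.000311, adjusted p = 0.000932 over 3 measures). CAST counts at Gm13341, a chr2 copy of mt-Co2 described below, were 4690 CPM on average and lie outside this share. Counts at Gm10925, a nuclear copy of mt-Atp6, lie outside it too, and adding them made the excess of mt-Atp6 in CAST smaller. In CPM, the sums of 13 mitochondrially encoded genes overlapped slightly, at 100100 to 119300 in NZO and 118900 to 147300 in CAST. The 10 highest genes took 14.1% to 16.7% in NZO and 15.7% to 17.9% in CAST (exact permutation test, adjusted p = 0.034). Total counts were 41.3 M to 46.9 M in NZO and 36.4 M to 50.4 M in CAST (exact permutation test, adjusted p = 0.221). In bulk tissue, fewer cells of a type and less RNA per cell cannot be told apart.

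Of 18786 genes tested, 11104 (59.1%) differed between the strains at an adjusted p under 0.05 (edgeR quasi-likelihood test, Benjamini-Hochberg). 5487 of them (29.2%) were higher in NZO and 5617 (29.9%) higher in CAST. The shares called of the gene lists below are to be read beside these shares of all genes. Most differences were small: the median absolute log2 difference among those called was 0.544. A difference of at least 2-fold was called for 3334 genes (17.7%), of which 1708 (9.09%) were higher in NZO and 1626 (8.66%) higher in CAST, and 799 differed by at least 8-fold. By the DESeq2 Wald test, the 2-fold count was 3372. By limma on the variance-stabilized matrix, 931 genes differed by at least 1 on that matrix's scale, which is not the same measure as 2-fold in counts. The 8 NZO and the 7 CAST libraries did not overlap in CPM for 3459 genes (18.4%). The plot of strain difference against level shows these genes in both directions.

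**Figure D1:**
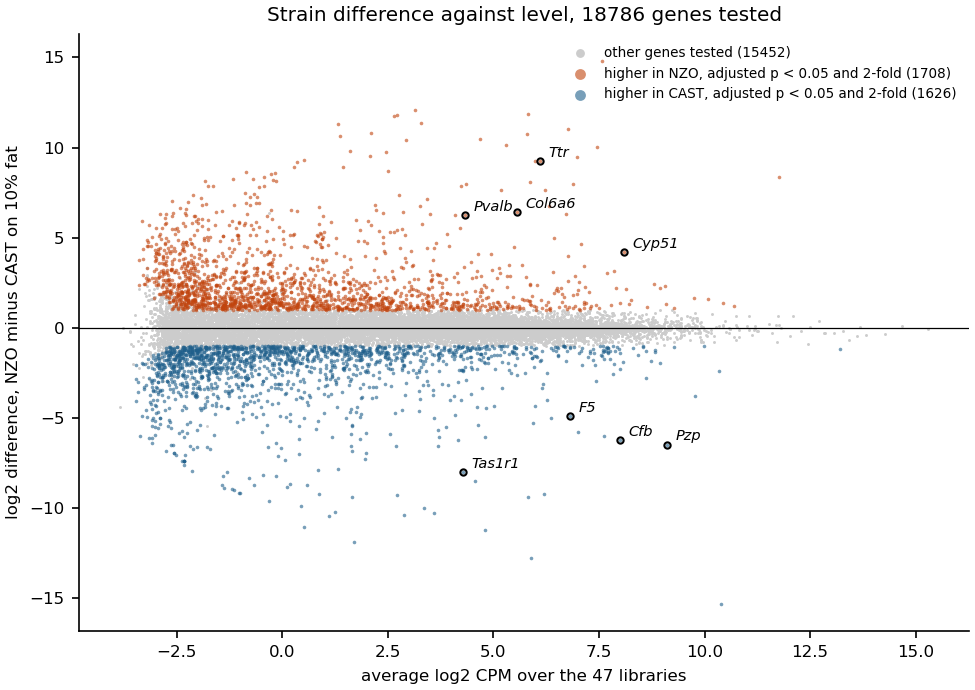
Log2 difference NZO minus CAST on 10% fat (vertical axis) against the average log2 CPM over the 47 libraries (horizontal axis), one point per gene tested. Coloured points are the 1708 genes higher in NZO and the 1626 higher in CAST by at least 2-fold at adjusted p under 0.05; circled genes are described in the text.

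Several of the largest differences lay in genes that share most of their sequence with another gene, and for these the level of the gene and of its copy moved in opposite directions. The windows below, from GENCODE M21 transcripts on GRCm38, are stretches of 90 bases. Among ungapped stretches within 1 exon and within any annotated coding sequence, they are those in which each gene and its copy differ most. Capitals mark the bases that differ. The first window lies in mt-Co2, subunit 2 of cytochrome c oxidase, at chrMT:7457-7546 on the + strand, and the second in Gm13341, an unprocessed pseudogene of it, at chr2:22587441-22587530 on the − strand.
mt-Co2: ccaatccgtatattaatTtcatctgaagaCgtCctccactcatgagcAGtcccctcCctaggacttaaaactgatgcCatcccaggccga
Gm13341: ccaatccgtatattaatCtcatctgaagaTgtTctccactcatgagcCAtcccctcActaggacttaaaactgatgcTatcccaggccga
Rpl9, a protein of the large ribosomal subunit, at chr5:65389521-65389610 in exon 5 on the − strand, and Rpl9-ps6 at chr19:32466204-32466293 on the − strand differ at 1 base of 692 aligned.
Rpl9: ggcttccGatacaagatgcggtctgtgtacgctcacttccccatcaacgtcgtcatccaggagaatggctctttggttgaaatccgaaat
Rpl9-ps6: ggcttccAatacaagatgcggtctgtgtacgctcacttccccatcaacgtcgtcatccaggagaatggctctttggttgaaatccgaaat
Cyp2a5, a cytochrome P450, at chr7:26837133-26837222 and its neighbour Cyp2a4 at chr7:26308970-26309059, both exon 4 on the + strand, differ at 4 bases of the window and are 98.3% identical over the aligned transcripts.
Cyp2a5: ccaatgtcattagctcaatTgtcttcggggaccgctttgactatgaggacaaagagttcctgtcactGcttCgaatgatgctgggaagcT
Cyp2a4: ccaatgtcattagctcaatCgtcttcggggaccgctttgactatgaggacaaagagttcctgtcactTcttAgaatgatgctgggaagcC

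mt-Co2 was measured at 3695 to 6737 CPM (median 4578) in NZO and at 10.9 to 19.0 CPM (median 13.2) in CAST. Gm13341 showed the reverse, at 0 to 0.381 CPM in NZO and 3230 to 6010 CPM in CAST. The sums of the gene and this copy overlapped, at 3700 to 6740 CPM in NZO and 3240 to 6030 CPM in CAST. B6, the strain of the reference genome, had 5330 CPM at mt-Co2 and 0.327 CPM at Gm13341 on average. With every gene holding at least 10% of its 31-base words added, the log2 difference of mt-Co2 was -0.17 ± 0.06 (SE, adjusted p = 0.0129), against 8.37 ± 0.15 for mt-Co2 counted alone.

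Ribosomal protein genes showed the same pattern. Rpl9 stood at 7.20 to 12.3 CPM in NZO and 175 to 196 CPM in CAST, while Rpl9-ps6 stood at 149 to 188 CPM in NZO and 0 to 0.527 CPM in CAST. Their sums, 161 to 198 CPM and 175 to 196 CPM, overlapped. Rpl19 with Rpl19-ps11, Rpl17 with Rpl17-ps8 and Rpl27 with Rpl27-ps3 gave overlapping sums too. The log2 differences of the summed counts were -0.09 for Rpl9 (adjusted p = 0.0644), -0.11 for Rpl19 (adjusted p = 0.0344) and 0.02 for Rpl17 (adjusted p = 0.694), against -4.36, -4.00 and -5.26 counted alone. Rps12 (-6.04 alone) and Rpl37rt (-5.52 alone) kept their direction at -0.38 and -0.34.

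Hba-a1, an alpha-globin gene of red blood cells, had 151 to 447 CPM in NZO against 1.68 to 5.21 CPM in CAST and 1.87 CPM on average in B6. With its neighbour Hba-a2 added, the levels were 395 to 1220 CPM in NZO and 383 to 1330 CPM in CAST, and the log2 difference was -0.07 ± 0.21 (adjusted p = 0.776). Cyp2a4 was at 206 to 423 CPM in NZO and 0.164 to 0.407 CPM in CAST, a log2 difference of 10.05. Summed with Cyp2a5 and a further copy it was still higher in NZO, by 2.15 ± 0.20 (adjusted p = 1.34e-11), and the sums of the 2 genes did not overlap (223 to 449 CPM against 35.5 to 187 CPM). Some changed sign in the mean of the sexes when summed: Ugt2b37 from -5.77 to 0.47, Ugt2b5 from -2.73 to 0.47, Kng1 from -5.39 to 0.17 and Slc22a30 from 4.63 to -0.09, the last of these not called (adjusted p = 0.418). Kng1 with Kng2 stayed higher in CAST in F (279.1 to 294.6 CPM in NZO, 295.3 to 337.6 CPM in CAST). In M this sum was higher in NZO (145.9 to 172.3 against 110 to 115.5 CPM). Slc22a30 with Slc22a28 stayed higher in NZO in F (72.5 to 79.5 against 25.6 to 62.1 CPM). In M that sum was higher in CAST (952 to 1105 against 535 to 645 CPM).

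**Figure D2:**
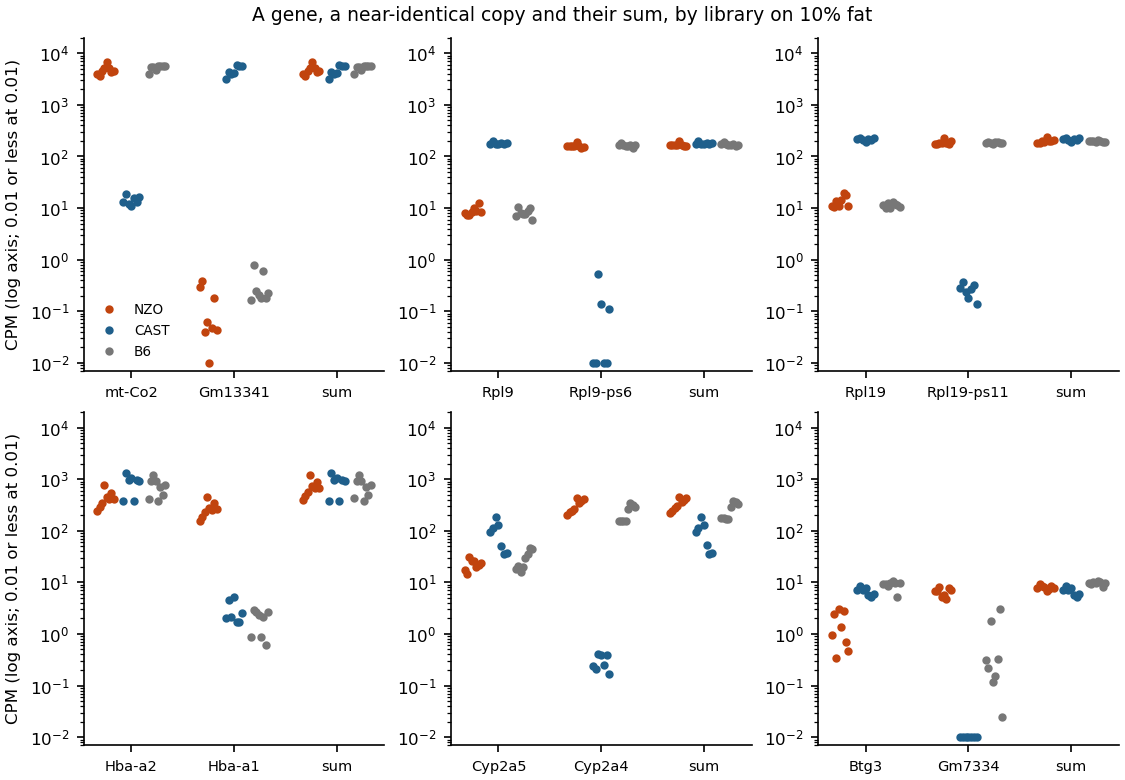
Level (CPM, log axis) of a gene, of a near-identical copy and of their sum in each NZO, CAST and B6 library on 10% fat, for 6 pairs chosen after their values were seen. For mt-Co2, Rpl9, Rpl19 and Hba-a2 the strains lie apart at the copy but overlap in the sum, while Cyp2a5 with Cyp2a4 stays higher in NZO.

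Across the genome, the share of genes called with at least a 2-fold difference rose with shared sequence. It was 16.2% of the 13006 genes with under 2% of their 31-base words in another GENCODE gene, 25.9% of the 923 genes with 20% to 50%, and 41.3% of the 1024 genes with at least 50%. Among the 799 genes differing by at least 8-fold, 209 had at least 50% of their words in another gene. The part of sequence sharing in any single difference was not tested beyond the sums given here. Genes described next that hold over 10% of their words in another gene include Cyp2d12 (15.8%), Cfb (75.5%), C2 (40.8%), C4b (48.3%), H2-D1 (26.7%), H2-Q4 (38.4%), Krt8 (32.3%), Hadhb (between 20% and 50%), Akt2 (13.3%), Rhbg (60.8%), Gstm2 (12.2%), Ciart (20.8%), mt-Nd2 (13.5%), mt-Nd5 (16.8%), mt-Atp6 (99.5%), Mndal (28.7%), Igf2 (61.9%) and the copies named as such. With copies added, Krt8, Hadhb (-0.49), Akt2 (-0.30), Rhbg (1.26), H2-Q4 (-0.64), mt-Nd2 (-1.19) and mt-Nd5 (-0.69) kept their direction on the log2 scale and stayed called.

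Among genes higher in NZO, Cyp51, lanosterol demethylase of cholesterol synthesis (chr5:4081145-4104746), ranged from 437 to 637 CPM (median 482) in NZO and from 22.1 to 30.4 CPM (median 27.1) in CAST. The level was 18.6-fold higher in NZO (log2 4.22 ± 0.08, adjusted p = 6.89e-36). Col6a6, a collagen VI chain (chr9:105687809-105828160), ranged from 28.0 to 269 CPM (median 130) in NZO and from 0.139 to 3.93 CPM (median 0.525) in CAST. M libraries were the higher ones within each strain, and the strain difference was 6.44 ± 0.24 on the log2 scale (adjusted p = 2.89e-22). Ttr, transthyretin, a carrier of thyroid hormone and retinol-binding protein, was at 60.9 to 240 CPM in NZO and at 0 to 0.710 CPM in CAST (log2 9.23 ± 0.39, adjusted p = 8.03e-21).

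Pvalb, parvalbumin, a calcium-binding protein of the distal convoluted tubule (chr15:78191114-78206400), was at 34.3 to 54.8 CPM (median 46.5) in NZO and 0.322 to 0.862 CPM (median 0.595) in CAST, without overlap. It was 75.7-fold higher in NZO (adjusted p = 4.7e-31), and B6 had 12.4 CPM. Habp2, a plasma serine protease, was at 137 to 229 CPM in NZO against 1.26 to 3.76 CPM in CAST (78.2-fold, adjusted p = 3.09e-32). Pik3c2g, a class II phosphoinositide 3-kinase, differed by 75.7-fold and Stra6l, a membrane receptor related to the retinol receptor, by 46.9-fold. Slc22a22, a prostaglandin transporter, was at 129 to 199 CPM in NZO and 0.299 to 36.7 CPM in CAST. Lack of overlap between the strains was a condition for naming these genes, and Cyp51 and Col6a6 above, so it is not a separate result.

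**Figure D3:**
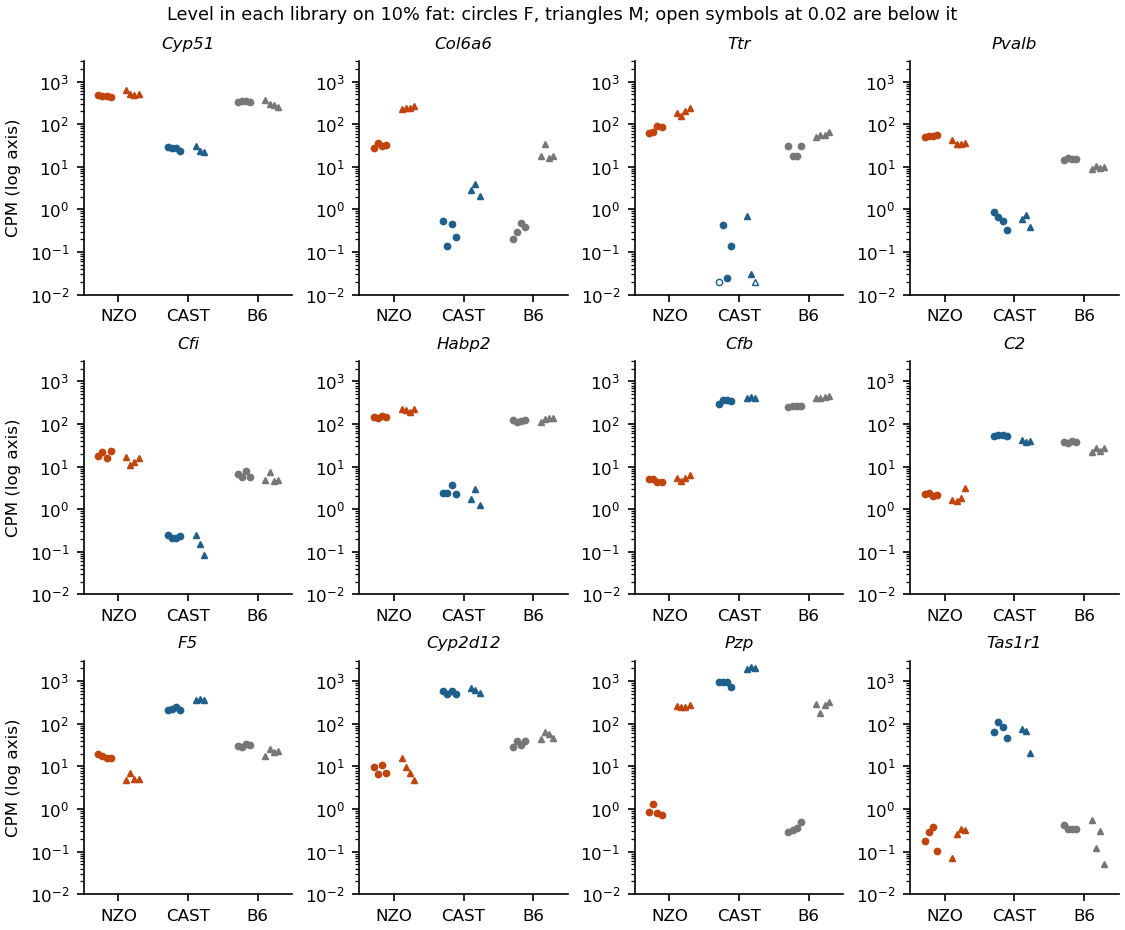
Level (CPM, log axis) of 12 genes in each NZO, CAST and B6 library on 10% fat, with circles for F and triangles for M and open symbols for values below 0.02 CPM. Cyp51, Col6a6, Ttr, Pvalb, Cfi and Habp2 are higher in all NZO libraries, and Cfb, C2, F5, Cyp2d12, Pzp and Tas1r1 in all CAST libraries. Lack of overlap was a condition for naming them, except for Ttr, Cfi and C2, which came from gene lists.

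Among genes higher in CAST, Tas1r1, a subunit of the umami taste receptor (chr4:152027914-152038568), stood at 21.1 to 111 CPM (median 69.3) in CAST and 0.0691 to 0.375 CPM (median 0.270) in NZO. The log2 difference was -8.01 ± 0.30 (adjusted p = 3.63e-22). Lack of overlap was a condition for naming this gene and the others of this paragraph. F5, coagulation factor V (chr1:164151838-164220277), was at 213 to 376 CPM in CAST and 4.93 to 19.5 CPM in NZO (log2 -4.90 ± 0.08, adjusted p = 1.77e-38). Cyp2d12, a cytochrome P450, was at 493 to 686 CPM in CAST and 4.75 to 15.9 CPM in NZO (log2 -6.00). Aox1, an aldehyde oxidase, was 67.1-fold and Ces2h, a carboxylesterase, 49.9-fold higher in CAST. Mep1a, the alpha subunit of the brush-border protease meprin, was at 282 to 1848 CPM in CAST and 42.7 to 68.4 CPM in NZO, while B6 had 1590 CPM. Sectm1b, a secreted immune protein, was 10.3-fold higher in CAST.

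Some genes were close to undetected in 1 strain. 30 genes had at most 3 counts over all 7 CAST libraries and at least 10 in every NZO library, and 25 genes showed the opposite pattern. 24 of these 55 genes had at least 50% of their words in another gene. Iigp1, an interferon-inducible GTPase, had 0 counts in CAST and 6.32 to 9.68 CPM in NZO, so it was at least 734-fold higher in NZO against a floor of 3 counts over the group. Fam213b, a prostamide and prostaglandin synthase, was at least 559-fold and RP23-53N23.3 at least 986-fold higher in NZO, again with 0 counts in CAST. BC018473 had 1 count in CAST and 7.58 to 87.2 CPM in NZO, a ratio of 8520 (95% exact interval 1530 to 337000, counting error only). Serpina3b, a serine protease inhibitor, had 0 counts in NZO and 6.43 to 12.8 CPM in CAST, at least 1280-fold higher. Tspan10, a tetraspanin, had 2 counts in NZO and 4.77 to 11.7 CPM in CAST, a ratio of 1500 (95% exact interval 416 to 12400, counting error only). Mndal, an interferon-inducible gene, had 3 counts in NZO, 5.52 to 8.01 CPM in CAST and 9.06 to 13.9 CPM in B6, and with its partners added the log2 difference was -2.90. The predicted genes Gm6741 and Gm7334, copies of Nanp and Btg3, had 0 counts in CAST, and their sums with those genes differed by 0.25 and 0.30 on the log2 scale. Gm2427 (2 counts in NZO) differed by -2.43 when its partners were added, and Gm6344 (0 counts in NZO) by -0.17.

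Complement is a cascade of plasma proteins that tags targets for removal, and its genes are made partly in the kidney. Of 21 genes tested, 4 were higher in NZO and 9 higher in CAST, with a list median of -0.05 beside -0.0074 for all genes. The share called, 61.9%, was near the 59.1% of all genes. Of the 21 genes, 3 were at least 2-fold higher in NZO and 7 in CAST. That is a larger share than the 17.7% of all genes that differed by at least 2-fold. Cfb, factor B of the alternative pathway (chr17:34856374-34862518), was at 4.27 to 6.36 CPM (median 5.15) in NZO and 300 to 422 CPM (median 370) in CAST. Cfb was also named among genes picked for lack of overlap. B6 with 343 CPM lay beside CAST (NZO minus CAST log2 -6.20 ± 0.12, adjusted p = 4.67e-33). C2, its neighbour and the classical-pathway counterpart, was at 1.55 to 3.18 CPM in NZO and 37.8 to 55.4 CPM in CAST (log2 -4.43 ± 0.11). Both share words with the predicted gene Gm20547, and with its counts added the differences were -6.18 and -4.38. Cfi, factor I, which degrades C3b and C4b, was at 11.1 to 23.2 CPM in NZO and 0.0820 to 0.252 CPM in CAST (log2 6.41 ± 0.22). C4b was at 18.7 to 152 CPM in NZO and 2.34 to 3.57 CPM in CAST, and was still higher by 3.20 with C4a added. Cd55 (1.68) and Cd59a (0.92), membrane regulators of the cascade, were the other 2 higher in NZO. C3, the central component, was at 41.4 to 91.3 CPM in NZO and 60.0 to 436 CPM in CAST, where the groups overlapped (log2 -1.28 ± 0.19, adjusted p = 6.91e-07). The C3 difference was -2.21 in F and -0.34 in M, where it was not called (adjusted p = 0.34).

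Interferon response genes differed in 25 of 29 tested (19 higher in NZO, 6 higher in CAST, median 0.53), a share of 86.2% beside 59.1% of all genes. Ifi44 was at 8.59 to 16.6 CPM in NZO and 1.01 to 1.66 CPM in CAST, and Irf7, a transcription factor of the response, at 5.53 to 8.90 and 0.956 to 2.35 CPM. Ddx58, the RNA sensor RIG-I, was 1.77-fold higher in NZO. Apobec3, a restriction factor of retroviruses, went the other way, at 6.62 to 8.43 CPM in NZO and 32.0 to 44.8 CPM in CAST. Mx2, an antiviral GTPase, was at 0 to 0.0470 CPM in NZO and 4.51 to 7.75 CPM in CAST. For all 5 of these genes the libraries of the strains did not overlap. They were named largely for small adjusted p in these same libraries, so this is not a separate result. Over the list, 14 of 29 genes did not overlap, beside 18.4% of all genes.

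Antigen presentation genes were higher in NZO for 11 of 21 and higher in CAST for 1, H2-Q4 (log2 -0.72 ± 0.14). The share called was 57.1%, near the 59.1% of all genes, of which 29.2% were higher in NZO. H2-D1, a class I molecule, was at 92.0 to 137 CPM in NZO and 19.4 to 28.4 CPM in CAST, and the difference of 2.18 became 1.44 with H2-K1 added. H2-Eb1 and H2-DMa, of the class II pathway, were 1.93-fold and 1.73-fold higher in NZO, H2-DMa with 1.16 in M and 0.41 in F on the log2 scale, the latter not called (adjusted p = 0.115). T cell markers were higher in NZO for 9 of 10, all by at least 2-fold, beside 9.09% of all genes higher in NZO by that much. Their levels were low: the 10 genes summed to 4.81 to 6.17 CPM in NZO and 1.37 to 2.82 CPM in CAST. Cd8a was at 0.365 to 0.982 CPM in NZO and 0.0240 to 0.253 CPM in CAST, and Cd3e reached no more than 0.451 and 0.0900 CPM. Lck was 2.78-fold higher in NZO. Trac was 2.96-fold higher in the mean of the sexes, with 2.51 in F and 0.62 in M on the log2 scale, the latter not called (adjusted p = 0.251). Macrophage markers differed in 5 of 12 (Adgre1 and Clec7a higher in NZO, Csf1r, Itgam and Lyz2 in CAST), a share of 41.7% that lies below the 59.1% of all genes, and summed to 89.2 to 124 CPM in NZO and 147 to 180 CPM in CAST. The part of these cells in the interferon and antigen presentation differences was not tested.

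Adipocyte markers were higher in CAST for 10 of 12, 8 of them by at least 2-fold (median -1.98), and none was higher in NZO. The share called was 83.3%, beside 59.1% of all genes. Of all genes, 29.9% were higher in CAST, and 8.66% by at least 2-fold. Their summed level was 116 to 179 CPM in NZO and 195 to 262 CPM in CAST. Pnpla2 alone, described next, gave 66.4 to 106 CPM in NZO and 96.1 to 122 CPM in CAST, so the sum is no measure of fat cells. Thrsp, a regulator of lipid synthesis, was at 0.570 to 3.79 CPM in NZO and 17.9 to 46.5 CPM in CAST (log2 -3.96 ± 0.27, adjusted p = 8.12e-15). Lipe and Pnpla2, the lipases of stored fat, were 1.64-fold and 1.29-fold higher in CAST. Car3, a carbonic anhydrase abundant in fat, was at 0.559 to 4.15 CPM in NZO and 2.18 to 51.1 CPM in CAST, with a log2 difference of -5.11 in M and of -1.09 in F, the latter not called (adjusted p = 0.147). The defining fat markers Adipoq and Plin1, named after their values were seen, were low in both strains, at 0.0228 to 0.942 CPM and 0.0235 to 1.15 CPM in NZO and at 0.750 to 2.64 CPM and 0.960 to 3.74 CPM in CAST. How much fat lay beside each kidney was not measured.

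Stroma and matrix genes were higher in CAST for 11 of 19 and higher in NZO for 2, Col4a3 and Tgfb1 (68.4% called, median -0.49). Col5a2, a fibrillar collagen, was at 22.0 to 71.6 CPM in NZO and 103 to 210 CPM in CAST, and Dcn, the proteoglycan decorin, at 12.6 to 20.6 and 41.3 to 62.2 CPM. Fn1, fibronectin, was 2.45-fold higher in CAST with overlapping libraries, and Acta2, smooth muscle actin, 1.78-fold higher without overlap. The whole list, led by more abundant collagens, summed to 1223 to 1629 CPM in NZO and 1341 to 1749 CPM in CAST, which overlap. Among 20 tubular injury and repair genes, 8 were higher in NZO and 4 in CAST (Spp1, Anxa2, Prom1 and Vim), 60% called beside 59.1% of all genes. Clu, clusterin, was at 122 to 230 CPM in NZO and 30.2 to 56.8 CPM in CAST, and Cp, ceruloplasmin, at 52.4 to 78.5 and 16.5 to 20.3 CPM. Krt8, a keratin, was 2.83-fold and Sox9, a factor of tubule repair, 7.63-fold higher in NZO, Sox9 at no more than 3.48 CPM.

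Of 18 glucose genes tested, 11 were higher in CAST and 4 in NZO, namely Slc2a5, Slc2a1, Slc2a2 and Pcx (median -0.30). The share called was 83.3%, beside 59.1% of all genes, of which 29.9% were higher in CAST. Slc5a2 (SGLT2), the main glucose carrier of the early proximal tubule, was at 338 to 446 CPM (median 370) in NZO and 450 to 554 CPM (median 464) in CAST. The libraries did not overlap, though the difference was small (1.28-fold, adjusted p = 3.24e-07). Slc5a1 (SGLT1) was 1.58-fold higher in CAST, and Slc2a9, a urate and glucose transporter, was at 9.53 to 16.8 CPM in NZO and 30.6 to 38.9 CPM in CAST. Of 18 insulin and leptin signalling genes, 9 were higher in CAST and 2 in NZO (Insr and Socs2), a share of 61.1% that is near that of all genes. Tbc1d1, a regulator of glucose transporter traffic, was 1.37-fold and Akt2, a kinase of the insulin pathway, 1.23-fold higher in CAST.

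Of 20 cholesterol genes, 8 were higher in NZO and 5 higher in CAST (Hmgcs1, Scarb1 and Abca1 among them), 65% called beside 59.1% of all genes. Beside Cyp51, Dhcr7, the last enzyme of the pathway, was at 15.6 to 24.5 CPM in NZO and 2.46 to 5.25 CPM in CAST. Hmgcs1, an early enzyme of the same pathway, went the other way, at 165 to 303 CPM in NZO and 390 to 783 CPM in CAST (log2 -1.21 ± 0.06, adjusted p = 4.92e-21). Scarb1, the HDL receptor, was 1.78-fold higher in CAST. Fatty acid oxidation genes were higher in NZO for 7 and in CAST for 11 of 29, 62.1% called, which is near the share of all genes. Plin2, a lipid droplet coat protein, was at 11.2 to 21.01 CPM in NZO and 34.2 to 52.9 CPM in CAST, and Hadhb, of the trifunctional protein of beta-oxidation, was 1.39-fold higher in CAST. Of 21 fatty acid and triglyceride synthesis genes, 6 were higher in NZO and 9 in CAST (71.4%). Mogat2, an acyltransferase, was 11.1-fold higher in NZO, and Elovl5, an elongase, 1.44-fold higher in CAST.

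Most called tubule segment markers differed by under 2-fold. Proximal tubule genes were higher in NZO for 5 (Acsm2, Lrp2, Slc34a1, Cubn and Ggt1) and in CAST for 11 of 18 (88.9%), among them the amino acid transporter gene Slc3a1 (log2 -0.51 ± 0.04). Slc7a13, another, was at 1.82 to 2.75 CPM in NZO F and 22.8 to 57.6 CPM in CAST F, while NZO M (942 to 1182 CPM) and CAST M (1010 to 1087 CPM) overlapped. Its log2 difference was -4.02 in F and 0.12 in M, where it was not called (adjusted p = 0.587). In the thick ascending limb, 3 of 12 were higher in NZO (Tmem72 and Cldn10 among them) and 6 in CAST (75%). Umod, uromodulin, was at 1952 to 3318 CPM in NZO and 3923 to 4956 CPM in CAST. In the distal convoluted tubule, 5 of 12 were higher in NZO and none in CAST, 41.7% called beside 59.1% of all genes. Besides Pvalb, the calcium-binding Calb1 was at 194 to 358 CPM in NZO and 72.0 to 135 CPM in CAST, Slc8a1, a sodium-calcium exchanger, was 1.84-fold higher, Trpm6, a magnesium channel, differed by 0.35 on the log2 scale, and Slc12a3, the thiazide-sensitive cotransporter that defines the segment, was 1.45-fold higher with overlapping libraries. The summed level of this list overlapped between the strains over both sexes, at 2403 to 4564 CPM in NZO and 2546 to 3786 CPM in CAST. In F the sums did not overlap (4233 to 4564 CPM in NZO, 3661 to 3786 CPM in CAST), and in M they did.

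Collecting duct markers differed in both directions, with 75% of principal and 75% of intercalated cell genes called. The shares were 66.7% for podocyte, 58.3% for endothelial and 33.3% for B and plasma cell genes, and 59.1% for all genes tested. Principal cell genes were higher in NZO for 3 (Kcne1, Scnn1b and Aqp4) and in CAST for 6 of 12, with Kcne1, a potassium channel subunit, 2.16-fold higher in NZO and Aqp3, a water channel, 1.48-fold higher in CAST. Intercalated cell genes were higher in NZO for 4 (Rhbg, Atp6v1b1, Slc4a9 and Foxi1) and in CAST for 5 (Insrr, Atp6v0d2, Slc26a4, Slc4a1 and Rhcg) of 12, with Rhbg, an ammonium transporter, 2.47-fold higher in NZO and Insrr, an alkali-sensing receptor, 1.40-fold higher in CAST. Podocyte genes were higher in NZO for 3 (Cdkn1c and Magi2 among them) and in CAST for 5 (Kirrel, Ptpro, Podxl, Nphs1 and Synpo) of 12, with Cdkn1c 1.70-fold higher in NZO and Kirrel, of the slit diaphragm, 1.38-fold higher in CAST. Endothelial genes were higher in NZO for 1 (Emcn) and in CAST for 6 of 12. B and plasma cell genes were higher in NZO for 2 (Cd22 and Cd74) and in CAST for 2 (Cxcl13 and Pax5) of 12.

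Of 32 organic ion and amino acid transporters, 12 were higher in NZO and 16 in CAST, a share of 87.5% beside 59.1% of all genes. Slc22a19, an organic anion transporter, was at 126 to 258 CPM in NZO and 14.95 to 33.1 CPM in CAST. Cytochrome P450 and glucuronidation genes split 10 and 10 of 26 (76.9%). Cyp2j5, an arachidonic acid epoxygenase of the kidney, was at 856 to 1848 CPM in NZO and 203 to 615 CPM in CAST. Glutathione and antioxidant genes were higher in CAST for 16 of 26 and in NZO for 6 (84.6%). Gstm2, a glutathione transferase, was at 13.4 to 21.5 CPM in NZO and 35.9 to 67.4 CPM in CAST, and Sod3, extracellular superoxide dismutase, was 2.46-fold higher in NZO. Renin-angiotensin genes were higher in NZO for 3 (Enpep and Mme among them) and in CAST for 6 of 12 (75%), with Enpep, which degrades angiotensin II, at 187 to 286 CPM in NZO and 82.3 to 101 CPM in CAST. Mme, neprilysin, was 1.74-fold higher in NZO.

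Of 13 mitochondrially encoded genes, 10 were higher in CAST and only mt-Co2, described above, higher in NZO (84.6% called, beside 59.1% of all genes). The list median was -0.33 on 10% fat and 0.10 on 44% fat. Only 4 of the genes called on 10% fat were called in the same direction on 44% fat. mt-Nd2 was at 5389 to 7060 CPM in NZO and 10020 to 16440 CPM in CAST, and mt-Nd5 was 1.61-fold higher in CAST. mt-Atp6 was 1.86-fold higher in CAST, and its log2 difference of -0.89 became -0.27 with a nuclear copy added. Clock genes differed in 4 of 18, all higher in CAST: Nr1d1 (1.81-fold), Ciart (3.42-fold), Bhlhe40 and Nr1d2. That share, 22.2%, lies below the 59.1% of all genes, and Ciart was called in F (log2 -2.75) but not in M (-0.80, adjusted p = 0.151). The hour at which tissue was taken is not given in the sources used here. Cell cycle genes were higher in NZO for 4 (Mcm2, Cenpe, Bub1 and Top2a) and in CAST for 1 (Mcm5) of 14, a share of 35.7% that also lies below that of all genes. Phosphate and vitamin D genes were higher in NZO for 6, with Gc, the vitamin D binding protein, at 1.18 on the log2 scale, and in CAST for Slc34a3 alone, of 15 (46.7%). Androgen-responsive tubule genes were higher in NZO for 6 and in CAST for 5 (Cyp2e1, Slc7a13, Odc1, Acsm3 and Timd2) of 15 (73.3%). Of 11 genes chosen as markers of other tissues near the kidney, 4 were higher in NZO (Hba-a1, Ttr, Star and Krt5) and 1 in CAST (Apoa2), 45.5% in all. Of 14 genes with known strain alleles, 3 were higher in NZO (Mx1, Naip1 and Nlrp1b) and 8 in CAST (78.6%).

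**Figure D4:**
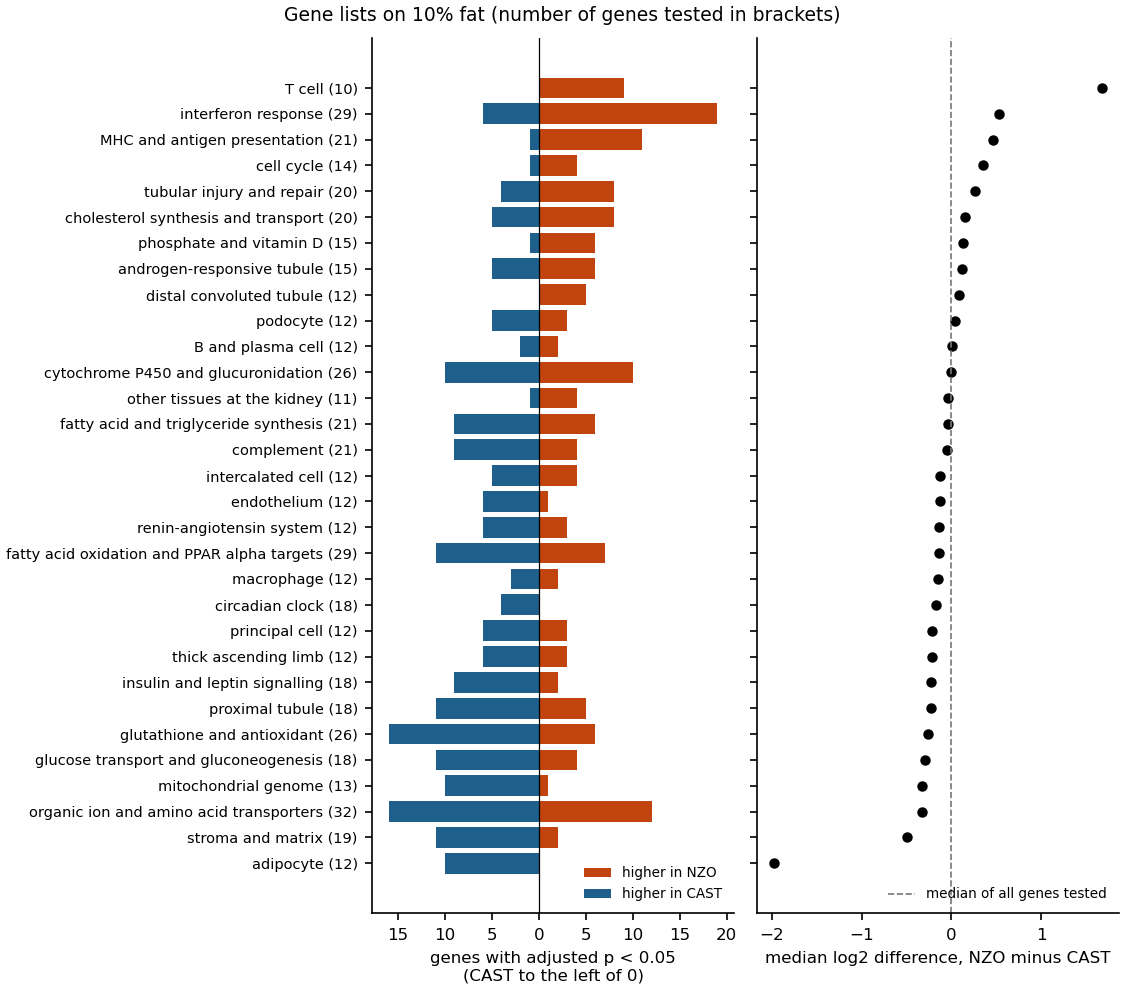
Left, number of genes of each list with adjusted p under 0.05, higher in NZO to the right of 0 and higher in CAST to the left; right, median log2 difference NZO minus CAST of the genes tested, with the median of all genes as a dashed line. T cell markers (median 1.68) and adipocyte markers (median -1.98) lie farthest from the median of all genes.

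The strain difference itself depended on sex for 1626 genes (8.66%) at an adjusted p under 0.05 for the difference of F minus that of M. The difference was larger in M for 1023 of them and larger in F for 603, and for 158 genes it was called in both sexes in opposite directions. Without the third CAST M library, 1079 genes were called. Igf2, insulin-like growth factor 2 (chr7:142650766-142666816), was at 362 to 480 CPM in NZO F, and at 1.80 to 2.45 CPM in CAST F, 1.38 to 2.10 CPM in NZO M and 1.12 to 1.62 CPM in CAST M. NZO F therefore stood alone among these 4 groups, while B6 F had 203 CPM and B6 M 1.83 CPM. The strain difference was 7.65 ± 0.33 in F and 0.35 ± 0.45 in M (interaction 7.31 ± 0.62, adjusted p = 1.74e-10), and 61.9% of its words lie in another gene.

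Apob, apolipoprotein B, was lowest in CAST F, at 12.01 to 24.8 CPM, against 430 to 560 CPM in NZO F, 181 to 347 CPM in NZO M and 188 to 288 CPM in CAST M (interaction 4.47 ± 0.29, adjusted p = 5.83e-14). Pzp, an alpha-macroglobulin protease inhibitor, was at 0.716 to 1.28 CPM in NZO F, 245 to 275 CPM in NZO M, 728 to 980 CPM in CAST F and 1956 to 2116 CPM in CAST M. Both sexes were higher in CAST, by 9.96 in F and 2.99 in M on the log2 scale. Slc22a22 was at 0.299 to 1.39 CPM in CAST F and 28.1 to 36.7 CPM in CAST M, so its NZO excess was 7.31 in F and 2.66 in M.

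Spock2, a matrix proteoglycan, was at 94.5 to 104 CPM in CAST M and no higher than 7.60 CPM in any other of these groups. Aox3, an aldehyde oxidase, was at 62.1 to 106 CPM in CAST F and no higher than 2.10 CPM in the others. Inmt, a methyltransferase, was at 2.62 to 3.63 CPM in NZO F and 53.0 to 94.4 CPM in CAST F, and at 360 to 501 CPM in NZO M and 198 to 300 CPM in CAST M. Car9, a carbonic anhydrase, was lower in NZO in F (log2 -2.44 ± 0.23, adjusted p = 7.58e-12) and higher in NZO in M (log2 3.01 ± 0.26, adjusted p = 5.73e-13). Marc1, a molybdenum enzyme, crossed over in the same sense, with -3.65 ± 0.42 in F and 2.43 ± 0.47 in M. Ugt2b5 was higher in CAST M, at 10.6 to 11.2 CPM, than in the other NZO and CAST groups on 10% fat, where the highest library had 0.647 CPM, with the limit given above for its copies.

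**Figure D5:**
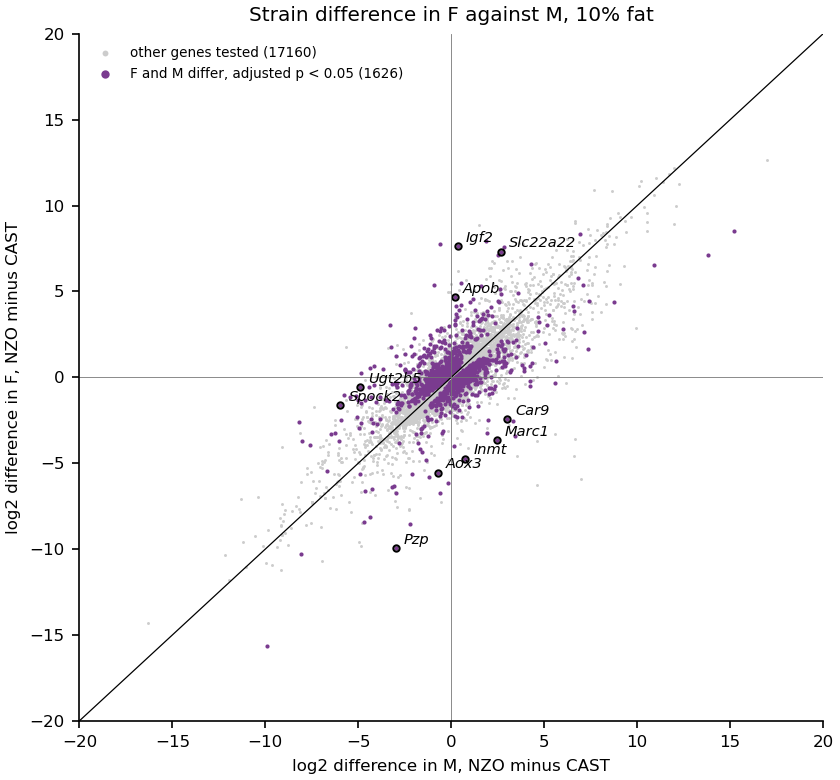
Log2 difference NZO minus CAST in F (vertical axis) against that in M (horizontal axis) on 10% fat, one point per gene tested, with the line of equality. Purple points are the 1626 genes whose differences in F and M differ at adjusted p under 0.05; Igf2 and Apob lie near 0 in M and high in F, and Car9 and Marc1 fall in the quadrant of opposite directions.

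The strains were also compared on 44% fat, in 16 other libraries, which enter none of the group means of the 10% fat comparison but share its fit, and so its estimates of spread and of the ID run term. There 11599 genes (61.7%) were called. Of the 3334 genes called with at least a 2-fold difference on 10% fat, 3044 (91.3%) were called in the same direction on 44% fat, against 29.2% called in either direction among genes not called on 10% fat. Cyp51 differed by 4.22 on 10% fat and 4.19 on 44% fat, and Cfb by -6.20 and -6.16. Pvalb differed by 6.24 and 5.14, and the change with diet was called (adjusted p = 0.00476). Slc5a2 differed by -0.36 and -0.01 (adjusted p of the change 0.0138), and Clu by 2.01 and 0.96.

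The sample ID numbers fall into 3 runs that are not balanced over the groups, so the runs entered the fit as a term. On run 77 alone, with both sexes of both strains, 5559 genes were called. H2-Eb1, H2-Q4, H2-DMa, Cd3e, Lck, Pnpla2, Slc5a2 and Akt2 kept their direction but were not called on that run alone, with adjusted p from 0.0607 for H2-Eb1 to 0.231 for H2-Q4.

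Neighbouring genes sometimes differed together. 30 stretches of at least 4 neighbouring tested genes, 141 genes in all, were called with at least a 2-fold difference in 1 direction. Of all 18786 genes, 3334 (17.7%) were called with such a difference in either direction. How many such stretches would arise without regard to position was not tested. Some members overlap in the annotation and are not separate loci: Methig1 spans Mettl7a2 and Higd1c, and Rnase4 and Ang share a start. The stretches named here were chosen after their values were seen. On chr14:51091077-51146767 the ribonuclease genes Rnase4, Ang, Rnase6 and Rnase1 and their neighbour Eddm3b were higher in NZO, with Rnase4 at 32.9 to 59.5 CPM in NZO and 4.37 to 6.65 CPM in CAST. On chr6:129577905-129876672 the killer-cell receptor genes Klre1, Klrd1, Klrk1, Klrc1 and Klra17 were higher in NZO, none above 0.870 CPM. The log2 differences ran from 2.59 for Klra17 to 4.91 for Klrk1 among those detected in CAST, where Klrc1 had 0 CPM in every library. On chr15:100334929-100383964 Mettl7a3, Methig1, Mettl7a2 and Higd1c were higher in CAST, with Mettl7a2 at 25.4 to 160 CPM in CAST and 0 to 0.0691 CPM in NZO. The genes of that last stretch have 60.9% to 72.2% of their words in another gene, Klrc1 has 53.1%, Ang 21.4% and Rnase4 10.02%.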

How the data were processed

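The authors deposited expected counts per gene (estimated counts, not all whole: 20.99% of values) for 47 kidney libraries, and a log2-scale variance-stabilized matrix of the same genes. Per the submitters' processing notes, DESeq2 was used and the build was GRCm38; the aligner and counter are not given in the sources used here. Per the labels' protocols, poly(A) libraries were read as 100 bp pairs with a target of 30 M pairs (M, mega). Counts were rounded and fitted with edgeR 4.0.16 (R 4.3.3) as 12 groups of strain, sex and diet plus a term for 3 runs of sample ID numbers, with filterByExpr (18786 of 22474 genes kept), TMM factors, the robust quasi-likelihood test and Benjamini-Hochberg adjustment. The test was checked on simulated data. DESeq2 1.42.0 and limma 3.58.1 served as alternatives. CPM are TMM-scaled and not corrected for gene length, so levels are compared between strains, not between genes. SE is that of the log2 difference.

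Members and gene lists were chosen with earlier results of these data known. Genes were named by 5 rules. The first and second used called genes with no overlap between the strains, average log2 CPM 1 or more, a mean of 10 counts or more in each group and a symbol that is no placeholder: the 12 highest and 12 lowest differences, and the 10 highest and 10 lowest at 100 CPM or more in the higher strain. The third took the 6 most abundant genes each way with at most 3 counts in the other strain, the fourth the 5 highest and 5 lowest sex interactions, and the last up to 4 members of each list by smallest adjusted p, or all where 5 or fewer were counted. Some genes that these rules name are not reported here. Shared sequence is the share of a gene's 31-base words found in another GENCODE M21 gene. Intervals and floors cover counting error only.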

Additional observations from a re-analysis of the deposited data

Results flagged for a closer look

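For 32 of the 113 genes checked, the strain difference in F differed from that in M at an adjusted p under 0.05 (edgeR quasi-likelihood test of the interaction). The F minus M value was positive, on the log2 scale, at 4.66 for Slc22a22, 1.22 for Aox1, 3.64 for Ugt2b37, 2.33 for F5, 2.22 for Mep1a, 1.30 for Sectm1b, 7.31 for Igf2, 4.47 for Apob, 4.36 for Ugt2b5, 4.34 for Spock2, 4.02 for Car3, 0.25 for Hadhb, 0.30 for Elovl5, 1.36 for Slc22a19 and 0.40 for Slc3a1. It was negative at -1.04 for Habp2, -1.73 for Pik3c2g, -6.97 for Pzp, -2.01 for Ces2h, -2.23 for Kng1, -0.74 for Rpl17, -6.08 for Marc1, -5.46 for Inmt, -5.45 for Car9, -4.81 for Aox3, -2.15 for C4b, -1.87 for C3, -0.64 for H2-D1, -0.81 for Dhcr7, -0.44 for Enpep, -4.14 for Slc7a13 and -0.96 for Krt8.

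For 12 genes the strain difference on 44% fat differed from that on 10% fat by the same test. The change, on the log2 scale, was 0.70 for Habp2, -1.10 for Pvalb, -0.81 for Slc22a22, 0.55 for Sectm1b, -0.56 for Col5a2, 0.34 for Slc5a2, 0.35 for Hmgcs1, -0.53 for Slc22a19, -1.05 for Clu, 0.37 for mt-Nd2, 0.60 for mt-Nd5 and 0.35 for Tbc1d1.

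In 34 of 327 groups of 4 libraries checked, 1 library's gap to the nearest of the others exceeded Dixon's 95% critical value, where chance alone flags about 1 in 20 groups. A group with 0 CPM in all libraries but 1 always exceeds it. The flags of Tspan10, Gm2427 and Mndal are of this kind and rest on at most 3 counts over all NZO libraries. Mx2 in NZO also lay near 0. In NZO F, 1 library was far above the other 3 for Kng1 (1.84), Rpl19 (13.9), Iigp1 (8.65), Tspan10 (0.0401), Mndal (0.0197), Lck (1.46), Pnpla2 (106), Dcn (20.6) and Sod3 (395), in CPM. In NZO F, 1 library was far below the other 3 for Habp2 (137) and Insrr (26.9), in CPM. In NZO M, 1 library was far above the other 3 for Rpl27-ps3 (111), Rpl17-ps8 (223), F5 (6.94), BC018473 (87.2), Gm2427 (0.043), Mndal (0.0456), C2 (3.18), Car3 (2.74), Acta2 (16.6) and Cp (73.3), in CPM. In NZO M, 1 library was far below the other 3 for Pik3c2g (30.5) and Mx2 (0.0215), in CPM. In CAST F, 1 library was far above the other 3 for Habp2 (3.76), Rps12 (95.3), Rpl9 (196), Aox3 (106), Acta2 (38.9), Slc5a2 (554) and Tbc1d1 (135), in CPM. In CAST F, 1 library was far below the other 3 for Pzp (728), Fn1 (161), Cyp2j5 (203) and Clu (50.2), in CPM.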

How the results depend on the processing

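The count of genes called on 10% fat ran from 9900 to 11377 under 7 of the alternatives and from 10478 to 10976 with 1 library left out, against 11104; on run 77 alone it was 5559, with fewer libraries. The count with at least a 2-fold difference ran from 3269 to 3406 with 1 library left out, and was 3372 by the DESeq2 Wald test, against 3334. By limma on the variance-stabilized matrix, 931 genes differed by at least 1 on that scale, which is not the same measure (the cause of the lower count was not tested). Sex-dependent genes (1626) numbered 1067 with only the 15 libraries and 1079 to 1800 with 1 library left out; the lowest was without CAST M replicate 3, and the cause was not tested. On 44% fat, 11599 became 5603 on run 77 alone and 11215 to 11454 with 1 library left out.

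With 1 library left out, the difference in mitochondrial share ran from -1.98 to -1.74 percentage points, that in the 10 highest genes from -1.32 to -0.912, and that in total counts from 1.17 to 3.49 M, the last of these passing the exact test (p = 0.026) without CAST F replicate 1.

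Of 113 named genes, 103 kept direction and side of the threshold under every alternative that gave a value, other than summing copies, and none reversed. Most were named for extreme differences or small adjusted p in these same libraries. Their stability was therefore largely set by that choice and says little about other genes. Summing copies was an alternative chosen after seeing the data. With copies summed, mt-Co2 (-0.17), Ugt2b37 and Ugt2b5 (0.47) and Kng1 (0.17) changed sign in the mean of the sexes and stayed called. Rpl27-ps3 (-0.0016), Hba-a1 (-0.07), Rpl17 (0.02) and Slc22a30 (-0.09) came near 0 on the log2 scale. They were no longer called (edgeR quasi-likelihood test, adjusted p from 0.418 to 0.983). No paired analysis was possible because the labels give no replicate numbers. Low genes such as the T cell markers rest on few counts.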
